A study of Mus musculus with 78 samples.

Results

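Lungs of mice kept awake for the first 9 h of the light phase (SD 9 h) were compared with lungs of mice left undisturbed to sleep over the same hours (SS 9 h). The members were taken from the sample labels alone: 9 SD 9 h arrays, numbered 1 to 5 and 20 to 23, and 9 SS 9 h arrays, numbered 10 to 14 and 28 to 31, which are 18 of the 78 lung arrays of the series. The other arrays hold the same pair of states at 3, 6 and 12 h and a baseline group at lights on (CTL 0 h, 9 arrays). All animals were young adult male mice whose background the labels give as C57BL\6, with no transgene and no drug in any group. They were housed in a light-dark cycle and fed only in the dark phase before the day of the experiment. SD mice were kept awake by gentle handling from lights on, and both groups were killed by cervical dislocation at the same clock time. Each array holds RNA of the whole lung of 1 mouse. Sleep was scored from gaps in beam crossings and not from brain recordings, so sleep and quiet rest were not separated in SS mice, and SD differs from SS in handling and activity as well as in sleep.

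The lung holds a large pool of blood leukocytes inside its capillaries beside its own epithelium, endothelium, fibroblasts and macrophages, and in rodents the number of circulating lymphocytes follows the time of day and the level of corticosterone. Chaperones of the cytosol and of the endoplasmic reticulum fold newly made proteins and are induced when misfolded protein accumulates, and in the brain their transcripts are known to rise when animals are kept awake. Glucocorticoids, released in stress and at the start of the active phase, induce a set of target genes that includes Fkbp5. Cirbp and Rbm3 encode RNA-binding proteins whose transcripts accumulate at lower body temperature.

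The lung identity of the tissue was clear on every array. Sftpc, which encodes surfactant protein C of alveolar type 2 cells, lay between 13.18 and 13.37 on the log2 intensity scale in all 18 arrays, and Ager, a marker of alveolar type 1 cells, between 11.89 and 12.14. The median log2 intensity of an array was 6.45 in SS array 11 and 6.58 in SS array 29, and 6.68 to 6.78 in the other 16.

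Several arrays went against their labels or stood apart, and results are therefore given with and without them. When each array was left out and set beside the group means over the 200 probe sets that best separated the groups, SS arrays 10 and 28 lay nearest to SD 12 h and SD array 20 nearest to SS 12 h, while each of the other 15 lay nearest to its own group. The labelled groups were also laid in order along the array numbers, skipping a number that no array carries. In that layout the same 3 arrays fall on those same 12 h groups, out of step with their labels. As labelled, each of the 3 sits in a block of consecutive numbers of its own group. The disagreement between number and label thus rests on the layout chosen. Values "without the 3 arrays" below leave out arrays 10, 20 and 28, which leaves 8 SD and 7 SS arrays. These arrays stood out by their expression, which the tests below also use. Leaving them out therefore favours larger differences, smaller p values and groups that do not overlap. Such values describe how far results rest on the 3 arrays and are not separate support.

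A second feature divided the SS arrays. A list of 19 genes of stratified squamous epithelium, the layered epithelium of skin, mouth and oesophagus, was written after its leading genes had been seen among the largest differences. Krt4, a keratin of such epithelia, lay between 4.08 and 5.35 in all 9 SD arrays and between 4.44 and 5.01 in SS arrays 10, 11 and 12, but was 11.33, 9.09, 11.69, 8.41, 12.05 and 10.90 in SS arrays 13, 14, 28, 29, 30 and 31. The mean level of the list, each gene centred over the 18 arrays, was -0.97 to -0.74 in SD arrays, -0.91 to -0.73 in SS arrays 10 to 12 and 0.15 to 2.88 in the other 6 SS arrays. The epithelium was thus seen in 6 of 9 SS 9 h arrays and in none of 9 SD 9 h arrays. It was not particular to these hours: centred over all 78 arrays, the list's level had its median at 1.37 in the baseline group (-0.96 to 3.11), reached 2.60 to 2.99 in SD 3 h, SD 6 h and SD 12 h, and stayed at or below -0.93 in SD 9 h. The 14 genes that differed by more than 2 on the log2 scale between the 9 h groups were all lower in SD arrays, and none passed the adjusted p of 0.01 from limma. Counts are given below also with this list's level by array as a covariate.

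At an adjusted p under 0.01 from limma, fitted on the 69 SD and SS arrays of all hours, 423 of 18820 genes (2.25%) differed between SD 9 h and SS 9 h. Of these, 127 genes (0.675% of all genes) were higher and 296 (1.57%) were lower in SD mice. Most differences were small: the median was 0.29 on the log2 scale among the higher genes and -0.35 among the lower ones, 16 genes were higher by more than 0.5, and 67 were lower by more than 0.5. Over all genes the median difference was -0.01. When the 3 arrays were left out, 432 genes (2.3%) were higher and 599 (3.18%) were lower, and 389 of the 423 genes were called again. With the squamous epithelium covariate, the counts were 72 higher and 88 lower with all arrays and 393 higher and 443 lower without the 3 arrays, with 131 and 696 genes shared with the respective fits that lack the covariate. Of 77 genes followed through every setting, among them most of those given with values below, 67 were called with all arrays and 28 of these with the covariate. Without the 3 arrays 75 were called, and 71 of these with the covariate, the exceptions being Ly6d, Fbln5, Hnrnph3 and Gclc. The plot of all genes shows both fits side by side.

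**Figure D1:**
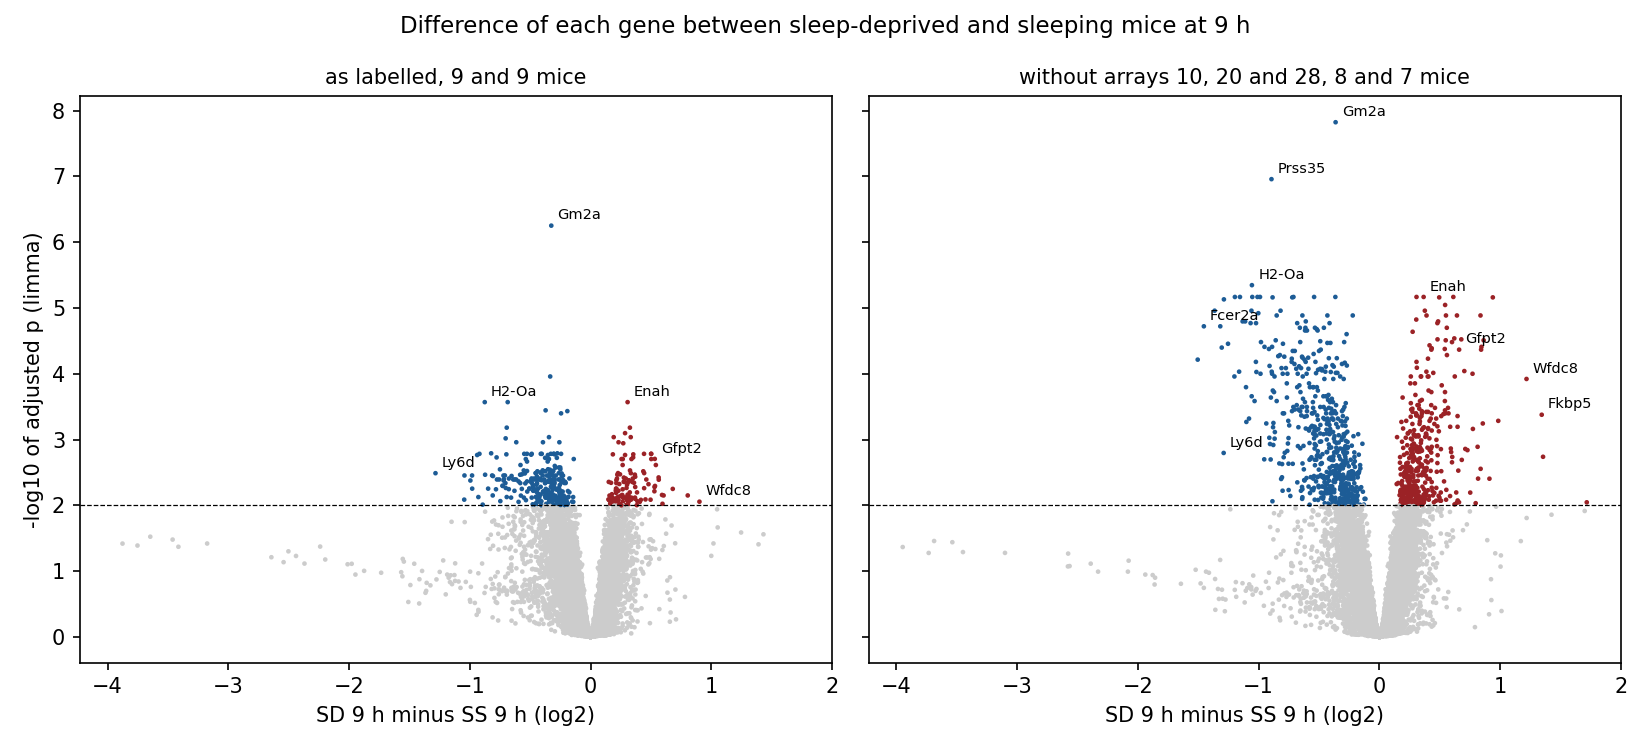
Difference between SD 9 h and SS 9 h (log2, x axis) against the negative log10 of the adjusted p from limma (y axis) for 18820 genes, each by its brightest probe set, with all 18 arrays (left) and without arrays 10, 20 and 28 (right); points above the dashed line, at an adjusted p of 0.01, are red where higher and blue where lower in SD mice. With all arrays, 67 genes are lower by more than 0.5 and 16 are higher by more than 0.5 among those that pass.

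Single arrays weighed heavily on these counts. With 1 array left out at a time, the total ran from 64 genes without SS array 29 to 801 without SS array 10. It was lower than with all arrays by over 1.5 times also without SD array 1 (197 genes), SD 2 (149), SD 3 (206), SD 4 (164), SD 5 (246), SS 14 (262), SS 30 (169) or SS 31 (216), and rose to 640 without SS array 11. SS array 29 is the array with the highest level of B cell genes. Only 61 genes were called in every one of the 18 fits with 1 array left out. A fit on the 18 arrays of the 9 h groups alone called 1 gene, Chst14, a sulfotransferase of dermatan sulfate that was chosen after its value was seen, which fell by 0.29 (adjusted p = 0.00649 from limma).

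**Figure D2:**
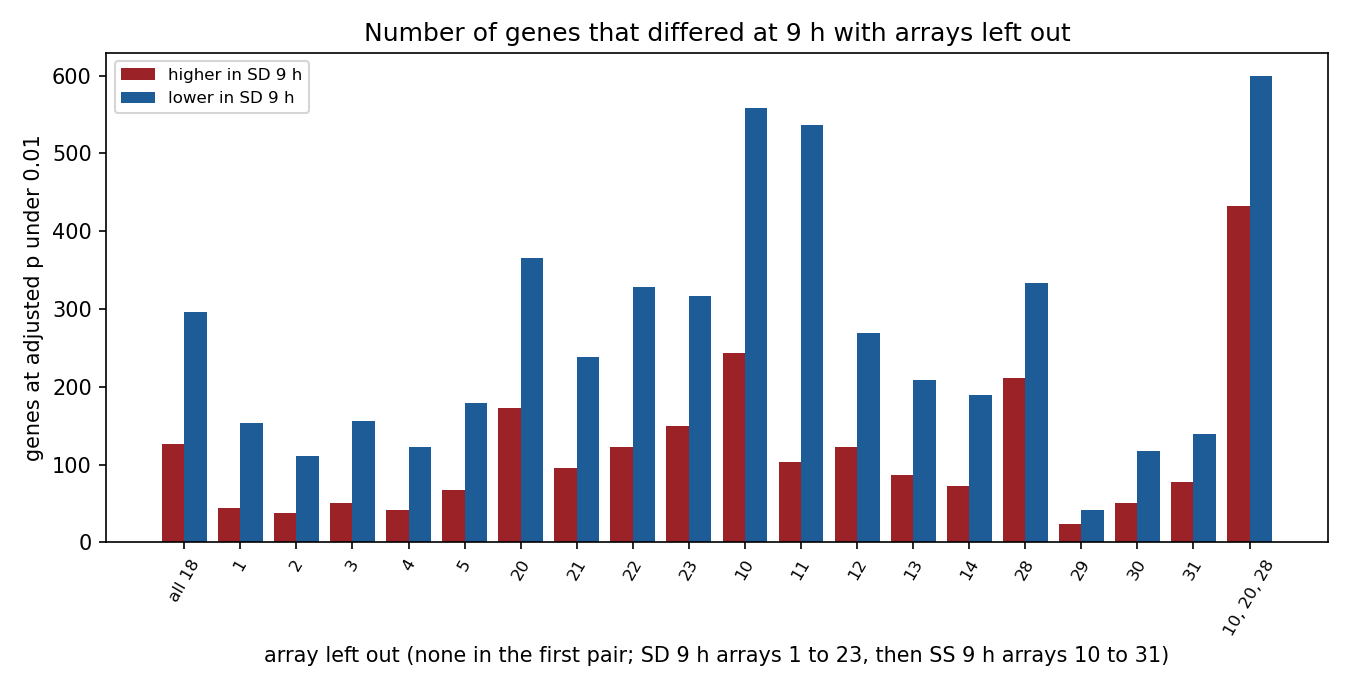
Number of genes higher and lower in SD 9 h at an adjusted p of 0.01 from limma (y axis; red bars higher, blue bars lower) with all 18 arrays, with each array left out in turn and without arrays 10, 20 and 28 (x axis). The total runs from 64 genes without SS array 29 to 801 without SS array 10.

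The 9 h arrays fall into a pair of runs of numbers. Run 1 holds numbers 1 to 19, with 5 SD and 5 SS arrays, and run 2 holds 20 to 35, with 4 of each. What else differed between the runs is not given in the sources used here. All baseline, 3 h and 6 h arrays carry numbers above 35, outside both runs. Within run 1 alone 115 genes were higher and 44 lower, and within run 2 alone 0 were higher and 3 (Hmcn1, Lrrc17 and Tiam1, chosen after their values were seen) were lower. With the run as a block, 150 were higher and 401 lower.

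Genes of B cells formed the clearest group of lower genes. Of 20 measured B cell genes, 14 fell and 0 rose with all arrays, where 1.57% of all genes fell, and all 20 fell without the 3 arrays, where 3.18% of all genes did. The median difference of the list was -0.79, and -1.11 without the 3 arrays, beside a median of -0.01 and 0.00 over all genes. In a sample of whole lung, fewer cells of a type and less RNA per cell cannot be told apart.

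Cd79b encodes Ig-beta, the part of the antigen receptor of B cells that passes on its signal. Its log2 intensity had a lowest, median and highest value of 8.84, 9.26 and 9.56 in SD mice and 8.87, 10.46 and 11.14 in SS mice. The groups overlapped through SS array 10, at 8.87, and SS array 28, at 9.47, while the other 7 SS arrays, from 9.74 upward, lay above every SD array. In limma's fit Cd79b fell by 0.94 on the log2 scale (adjusted p = 0.00172, SE 0.18), and by 1.20 (adjusted p = 6.8e-06, SE 0.17) without the 3 arrays. Its mean in the baseline mice was 10.26 ± 0.23 (SD, n = 9), beside 9.23 ± 0.27 (SD, n = 9) in SD 9 h and 10.17 ± 0.69 (SD, n = 9) in SS 9 h. The mean of the mice kept awake was thus below the baseline mean and that of the sleeping mice near it. Baseline arrays, however, were taken at another time of day and lie outside both runs of the 9 h arrays, and no test was run on them.

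The partner chain and other B cell genes followed. All differences are on the log2 scale. Cd79a fell by 0.98 (SE 0.21, adjusted p = 0.00352 from limma), from a median of 10.04 in SS mice to 8.78 in SD mice. Pax5, the transcription factor that maintains B cell identity, fell by 0.87 (SE 0.18, adjusted p = 0.00343). Ms4a1, which encodes CD20, fell by 0.98 (SE 0.22, adjusted p = 0.00558). Blnk, an adaptor that relays antigen receptor signals in B cells, fell by 0.70 (SE 0.13, adjusted p = 9.6e-04), and Fcrla, an Fc receptor-like protein of germinal centre B cells, by 0.92 (SE 0.17, adjusted p = 0.00165). Cd72, a B cell co-receptor, fell by 0.71 (SE 0.16, adjusted p = 0.0046). Without the 3 arrays, Cd79a, Pax5, Fcrla and Cd72 showed no overlap between the groups, whereas Ms4a1 and Blnk still overlapped.

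The strength of the B cell result moved with single arrays. The mean level of the list by array ran from -0.66 to -0.12 in SD mice, was -0.81 in SS array 10 and -0.26 in SS array 28, and ran from -0.11 to 1.17 in the other SS arrays, with SS array 29 highest. With 1 array left out, between 3 and 19 of the 20 genes fell, and without the 3 arrays between 19 and 20 did. With the squamous epithelium covariate 3 of 20 fell with all arrays and 18 of 20 without the 3. Ly6d, a surface antigen of early B lineage cells and also of squamous epithelium, stood apart from the rest of the list. It was 8.83 in SS array 28, where 15 of the 20 B cell genes did not exceed the highest SD array, and 6.81, 7.03 and 7.26 in SS arrays 10, 11 and 12, which lacked the squamous genes. Its difference with all arrays and without the covariate was -1.28, the largest fall of the list. It was -0.68 (adjusted p = 0.0213 from limma) with the covariate and -0.73 (adjusted p = 0.0139) with the covariate and without the 3 arrays. Plasma cell genes were not called: 0 of 8 passed, with a median of -0.15.

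**Figure D3:**
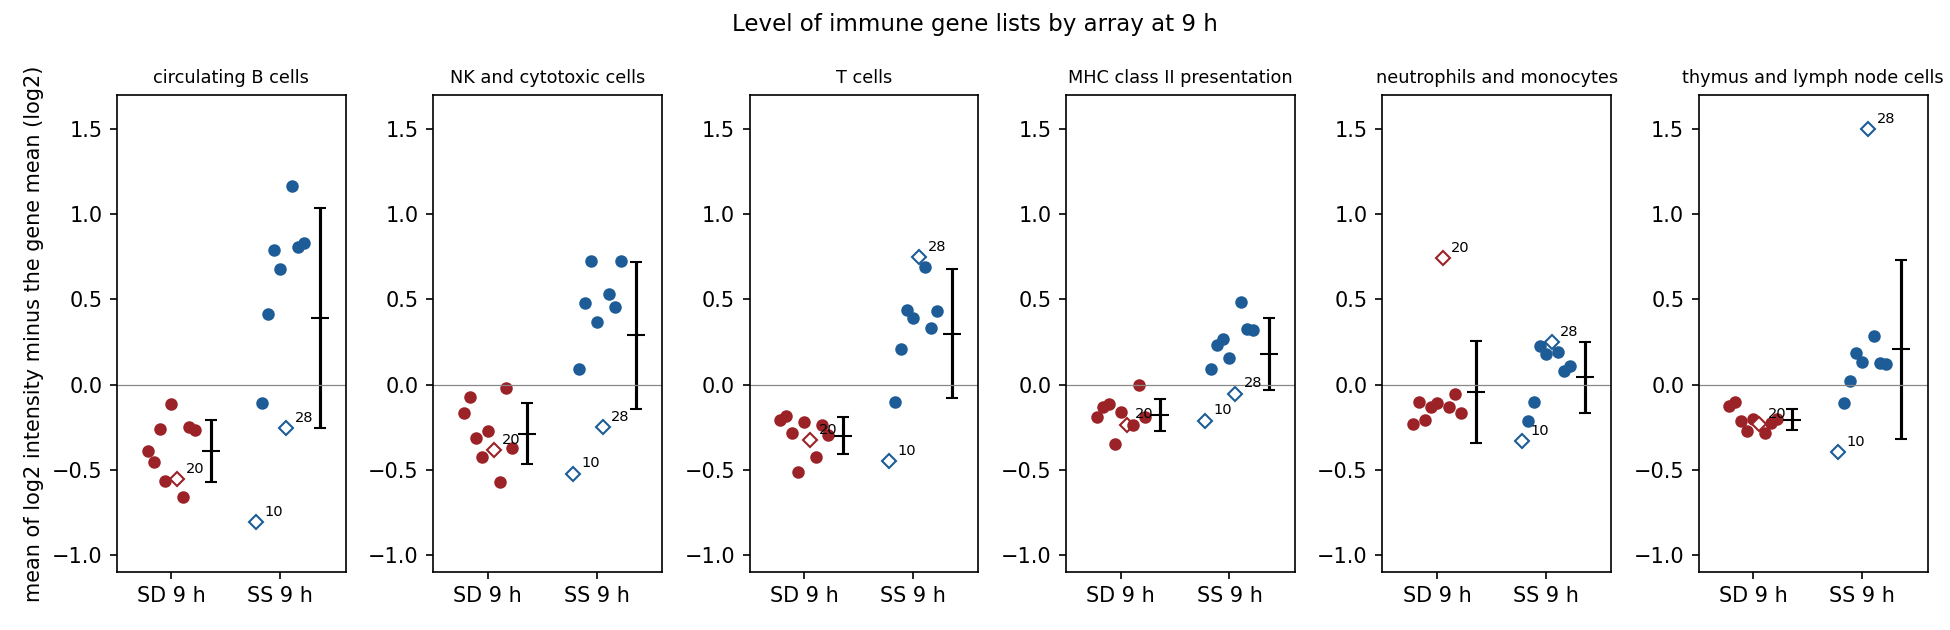
Mean level of 6 gene lists by array (log2, each gene centred over the 18 arrays; y axis) in SD 9 h (dark red) and SS 9 h (blue), with bars for the mean and SD; open diamonds mark arrays 10, 20 and 28. For B cells the SS arrays other than 10 and 28 run from -0.11 to 1.17 and the SD arrays from -0.66 to -0.12.

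Natural killer and cytotoxic cell genes were also lower in mice kept awake. Of 17 measured genes 7 fell and 0 rose, where 1.57% of all genes fell, with a median difference of -0.60. Leaving out the 3 arrays, 15 of 17 fell, where 3.18% of all genes did, and the median was -0.79. Ncr1, which encodes the activating receptor NKp46 and marks natural killer cells, had a lowest, median and highest log2 intensity of 5.91, 6.25 and 6.78 in SD mice and 6.03, 7.44 and 7.94 in SS mice. SS arrays 10 and 28, at 6.03 and 6.16, lay within the SD range, and the other SS arrays started at 6.85, above every SD array. Ncr1 fell by 0.995 (SE 0.22, adjusted p = 0.0042 from limma), and by 1.31 (SE 0.22, adjusted p = 4.0e-05) without the 3 arrays.

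The other genes named for these cells included receptors and a chemokine. Il2rb, the beta chain of the interleukin 2 and 15 receptors, fell by 0.82 (SE 0.15, adjusted p = 0.00162 from limma). Klrb1c, which encodes the NK1.1 antigen, fell by 0.60 (SE 0.13, adjusted p = 0.00433), and Klra4, a Ly49 receptor whose probes may share signal with near-identical family members, by 0.70 (SE 0.16, adjusted p = 0.00545). Ccl5, a chemokine of cytotoxic lymphocytes that also stands in the inflammatory list, fell by 0.72 (SE 0.16, adjusted p = 0.0042) and was the 1 gene of 29 called in that list. Between 1 and 12 of the 17 genes fell with 1 array left out, and between 12 and 15 without the 3 arrays. With the squamous epithelium covariate 2 of 17 fell, and 15 of 17 without the 3 arrays.

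T cell genes had a median below that of all genes, and few passed. Of 21 genes 3 fell, where 1.57% of all genes fell, with a median of -0.61. Without the 3 arrays 5 fell, where 3.18% of all genes did, with a median of -0.63. Ccr7, the receptor that guides naive lymphocytes and dendritic cells to lymph nodes, had a median of 7.67 in SD mice (7.55 to 7.99) and 8.56 in SS mice (7.41 to 9.37), and fell by 0.72 (SE 0.15, adjusted p = 0.00353 from limma). SS array 10, at 7.41, was the lowest of all 18 arrays, and without the 3 arrays the groups did not overlap. Ms4a4b, a membrane protein of T cells, fell by 0.73 (SE 0.16, adjusted p = 0.00504) and Cd2, an adhesion receptor of T and natural killer cells, by 0.48 (SE 0.11, adjusted p = 0.00486). Cd3e, a chain of the T cell receptor complex, differed by -0.87 (SE 0.23, adjusted p = 0.0125), past no threshold here. Between 0 and 7 of the 21 genes fell with 1 array left out, and 0 with the squamous epithelium covariate, or 4 without the 3 arrays.

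Of 8 genes of thymus and lymph node cells 0 passed in either fit. The level of this list was 1.50 in SS array 28, where the next highest SS array had 0.29, and the T cell list too was highest there, at 0.75, while that array's B cell level was -0.26. The median difference of the thymus list was -0.35, and -0.13 without the 3 arrays. What part tissue around the lung has in the lymphocyte results was not tested.

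Some genes that present antigen on MHC class II, the molecules through which B cells, dendritic cells and macrophages show peptides to helper T cells, were lower as well. Of 10 measured genes 4 fell and 0 rose, where 1.57% of all genes fell, and 5 fell without the 3 arrays, where 3.18% did. The median difference was -0.29, and -0.33 without the 3 arrays. H2-Aa, the alpha chain of I-A, was 11.19 to 11.56 in SD mice, with a median of 11.35, and 11.46 to 11.75 in SS mice, with a median of 11.63. It fell by 0.28 (SE 0.05, adjusted p = 0.0019 from limma) and was called in all 18 fits with 1 array left out. H2-Oa, a chain of the peptide-exchange modulator H2-O that is known from B cells, fell furthest, by 0.88 (SE 0.14, adjusted p = 2.7e-04), and its groups did not overlap without the 3 arrays. H2-DMa, a chain of the peptide exchanger H2-M, fell by 0.47 (SE 0.10, adjusted p = 0.00392) and H2-Eb1, the beta chain of I-E, by 0.31 (SE 0.08, adjusted p = 0.00837). Cd74, the invariant chain, differed by -0.24 (SE 0.07, adjusted p = 0.016). Between 2 and 5 genes of the list fell with 1 array left out, and 3 with the squamous epithelium covariate.

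Other blood and macrophage lists moved little. Of 25 neutrophil and monocyte genes 1 rose and 0 fell, the median being -0.02. The gene that rose was Hp, which encodes haptoglobin, by 0.22 (SE 0.05, adjusted p = 0.00764 from limma). With the 3 arrays left out 2 rose and 3 fell and the median was -0.19. Retnlg, a secreted product of neutrophils, ran from 8.02 to 10.19 in SD mice and from 8.04 to 9.72 in SS mice, and the level of the whole list in SD array 20 was 0.74 where the next SD array had -0.05. Retnlg then fell by 1.08 (SE 0.22, adjusted p = 4.8e-04). Cd68, a lysosomal protein of macrophages, was the 1 of 22 macrophage genes called, and fell by 0.53 (SE 0.10, adjusted p = 0.00216), from a median of 10.29 in SS mice to 9.70 in SD mice. Mrc1, the mannose receptor of alveolar macrophages, differed by 0.18 (SE 0.05, adjusted p = 0.0173). Platelet, erythroid and mast cell genes gave 0 calls.

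**Figure D4:**
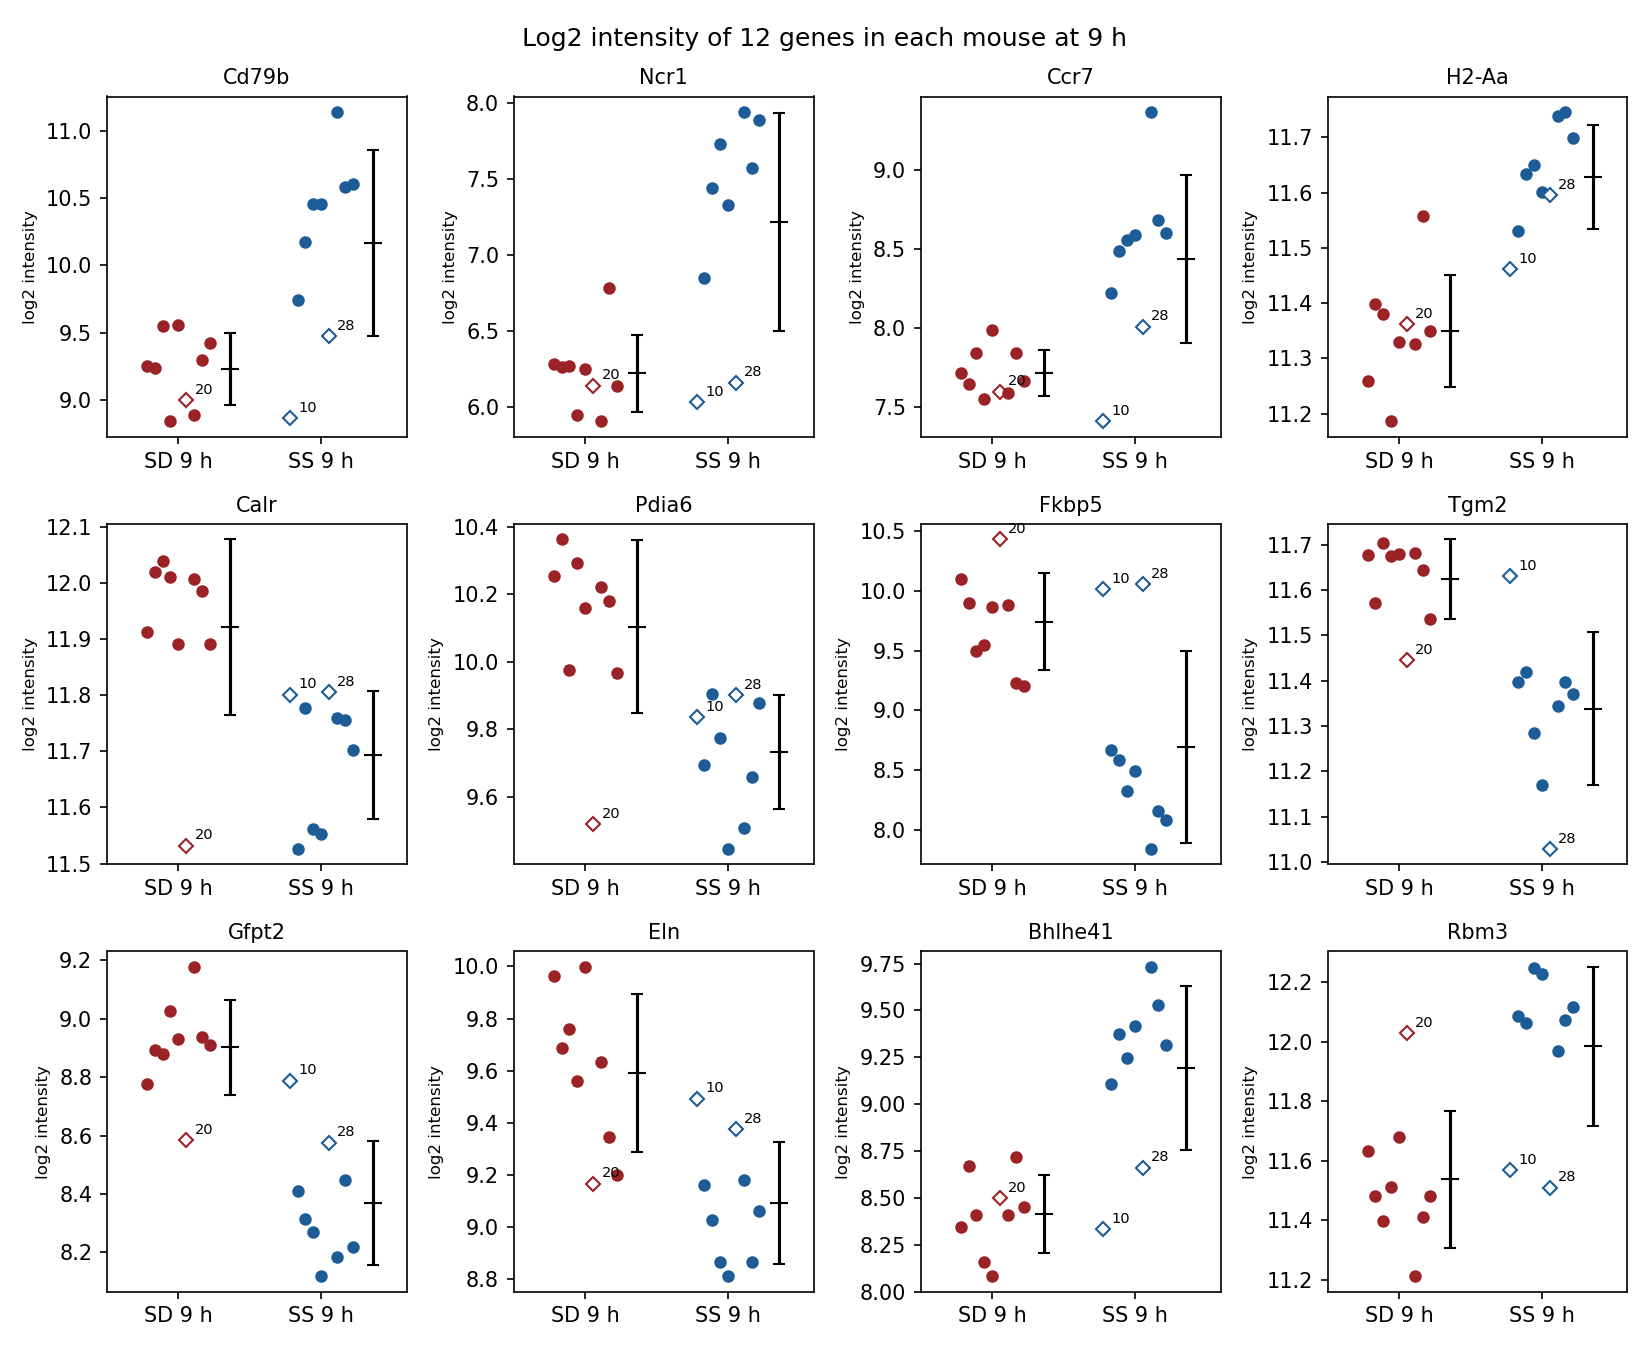
Log2 intensity (y axis) of 12 genes by array in SD 9 h (dark red) and SS 9 h (blue), with bars for the mean and SD; open diamonds mark arrays 10, 20 and 28. SS arrays 10 and 28 lie in or near the SD range for Cd79b, Ncr1, Fkbp5 and Bhlhe41, and SD array 20 lies lowest of the SD arrays for Calr and Pdia6.

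A few genes of protein folding in the endoplasmic reticulum were higher in mice kept awake. Of 38 measured genes 4 rose (Calr, Hyou1, Pdia6 and Hsp90b1) and 0 fell, where 0.675% of all genes rose, and 8 rose without the 3 arrays, where 2.3% did. The median over the list was 0.07, and 0.08 without the 3 arrays, and the 4 genes that rose all encode chaperones or foldases of the lumen. Calr encodes calreticulin, the calcium-binding chaperone of glycoproteins. It lay between 11.53 and 12.04 in SD mice, with a median of 11.99, and between 11.53 and 11.81 in SS mice, with a median of 11.76. SD array 20, at 11.53, was the lowest SD array, and the other 8, from 11.89 upward, lay above every SS array. Calr rose by 0.23 (adjusted p = 0.00324 from limma, SE 0.05), and by 0.31 (SE 0.04, adjusted p = 6.8e-06) without the 3 arrays. Its difference was 0.33 within run 1 and 0.10 within run 2, the run that holds array 20.

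Hyou1, an Hsp70-like chaperone that serves as exchange factor for BiP, rose by 0.35 (SE 0.07, adjusted p = 0.00187 from limma), with 9.43, 9.83 and 9.94 as lowest, median and highest in SD mice and 9.27, 9.50 and 9.62 in SS mice. Pdia6, a disulphide isomerase, rose by 0.37 (SE 0.08, adjusted p = 0.00368), from a median of 9.78 to 10.18. Hsp90b1, which encodes Grp94, rose by 0.28 (SE 0.06, adjusted p = 0.00441). Hspa5, which encodes BiP and is named here after its value was seen, differed by 0.25 (SE 0.07, adjusted p = 0.0225), and rose by 0.34 (SE 0.07, adjusted p = 0.00142) without the 3 arrays. In all 5 genes SD array 20 held the lowest value of the SD group. Between 2 and 7 genes of the list rose with 1 array left out, and 3 with the squamous epithelium covariate. Of 22 target genes of Atf4, a transcription factor of the integrated stress response, 0 passed in either fit, with a median of 0.00.

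Promoter sequences of 3 of these 4 chaperone genes are shown because they share the endoplasmic reticulum stress response element, a pair of half-sites known to bind NF-Y and Atf6, searched on both strands as CCAAT followed after 9 bases by CCACG. The sequences are RefSeq's, on GRCm38.p6, from 250 bases before to 50 bases after the start of the gene, 5′ to 3′ on the strand of the gene, with each match in capitals. Calr lies at chr8:84846882-84847181 on the minus strand, Hsp90b1 at chr10:86705395-86705694 on the minus strand and Pdia6 at chr12:17266339-17266638 on the plus strand.
Calr: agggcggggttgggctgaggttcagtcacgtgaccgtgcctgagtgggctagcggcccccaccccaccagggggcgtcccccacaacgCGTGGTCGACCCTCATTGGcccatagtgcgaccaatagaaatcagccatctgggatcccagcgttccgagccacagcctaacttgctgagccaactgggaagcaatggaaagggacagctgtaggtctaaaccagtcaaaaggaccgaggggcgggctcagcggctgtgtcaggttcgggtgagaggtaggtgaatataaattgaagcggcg
Hsp90b1: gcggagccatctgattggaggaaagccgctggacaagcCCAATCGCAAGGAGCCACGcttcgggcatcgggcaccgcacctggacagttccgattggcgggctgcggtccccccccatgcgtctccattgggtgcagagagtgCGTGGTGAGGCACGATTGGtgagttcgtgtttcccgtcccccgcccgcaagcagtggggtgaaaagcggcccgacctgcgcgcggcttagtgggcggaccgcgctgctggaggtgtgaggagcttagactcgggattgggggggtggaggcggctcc
Pdia6: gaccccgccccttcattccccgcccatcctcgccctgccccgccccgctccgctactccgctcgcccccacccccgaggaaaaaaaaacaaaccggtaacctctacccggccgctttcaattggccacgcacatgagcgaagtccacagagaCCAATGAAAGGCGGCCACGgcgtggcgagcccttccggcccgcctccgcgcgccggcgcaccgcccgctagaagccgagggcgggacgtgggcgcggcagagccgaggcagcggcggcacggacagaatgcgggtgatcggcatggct

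The element was found in 39 of 32851 promoters of the same length (0.119%). It was present in 3 of the 100 higher genes with a promoter in the table, in 0 of 232 lower genes and in 10 of 30 genes of the endoplasmic reticulum list (33.3%). This motif was added to the search after the values were seen, Hyou1 had no matched promoter, and a match is a description of letters only. The heat shock element pair, searched as GAANNTTC, lay in 12 of 33 cytosolic chaperone promoters (36.4%), in 11 of 100 higher genes and in 7.86% of all promoters.

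Cytosolic chaperones rose in smaller number. Of 37 measured genes 3 rose and 0 fell, where 0.675% of all genes rose, with a median of 0.12. Without the 3 arrays 6 rose, where 2.3% of all genes did, with a median of 0.18. Fkbp4, an Hsp90 partner in steroid receptor complexes, rose by 0.30 (adjusted p = 0.00764 from limma, SE 0.07), from a median of 9.58 in SS mice to 9.88 in SD mice. Ahsa1, which activates the ATPase of Hsp90, rose by 0.31 (SE 0.08, adjusted p = 0.00977), and Hspa4, an exchange factor of Hsp70, by 0.19 (SE 0.05, adjusted p = 0.00796). Hsph1, another exchange factor of Hsp70 named after its value was seen, was 8.75 to 9.57 in SD mice and 8.07 to 9.25 in SS mice, and differed by 0.63 (SE 0.19, adjusted p = 0.027). It rose by 0.84 (SE 0.20, adjusted p = 0.00279) without the 3 arrays, where the groups did not overlap. With 1 array left out between 0 and 5 genes of the list rose, and with arrays centred on their medians 0 rose. Fkbp14, a prolyl isomerase of the endoplasmic reticulum in no list here, rose by 0.59 (SE 0.14, adjusted p = 0.00696).

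Among 23 genes known to be induced by glucocorticoids 1 rose, where 0.675% of all genes rose, with a median of 0.14. Without the 3 arrays 5 rose, where 2.3% of all genes did, with a median of 0.25. The gene called with all arrays was Tgm2, which encodes a transglutaminase that crosslinks proteins. It was 11.45 to 11.71 in SD mice and 11.03 to 11.63 in SS mice, and rose by 0.29 (SE 0.05, adjusted p = 8.0e-04 from limma) in every fit with 1 array left out. Fkbp5, the feedback inhibitor of the glucocorticoid receptor, had the widest gap: its lowest, median and highest values were 9.21, 9.86 and 10.43 in SD mice and 7.84, 8.49 and 10.05 in SS mice. SS arrays 10 and 28, at 10.01 and 10.05, were above most SD arrays, whereas the other 7 SS arrays ended at 8.67, below every SD array. Fkbp5 differed by 1.05 (SE 0.27, adjusted p = 0.0115), and rose by 1.35 (SE 0.27, adjusted p = 4.2e-04) without the 3 arrays. Its baseline mean, from another time of day and from arrays outside both runs, was 7.74 ± 0.91 (SD, n = 9). Map3k6, a stress-activated kinase, differed by 0.70 (SE 0.22, adjusted p = 0.0378) and Angptl4, a lipase inhibitor that is also induced by fasting, by 0.57 (SE 0.20, adjusted p = 0.0651). Both rose without the 3 arrays, by 0.91 (SE 0.22, adjusted p = 0.00394) and 0.82 (SE 0.20, adjusted p = 0.00393). No corticosterone value was used here.

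A set of matrix genes differed in both directions. Of 36 genes of collagens, elastic fibres and crosslinking 2 rose and 1 fell, with a median of 0.06. This median was 0.15 within run 1 and -0.08 within run 2. Of all genes 0.675% rose and 1.57% fell. Eln, the gene of elastin, was 9.17, 9.64 and 9.998 in SD mice and 8.81, 9.06 and 9.49 in SS mice as lowest, median and highest. It rose by 0.50 (SE 0.12, adjusted p = 0.00822 from limma). The difference of Eln was 0.723 within run 1 and 0.215 within run 2, where the groups overlapped. P4ha2, a prolyl hydroxylase of collagen, rose by 0.44 (SE 0.09, adjusted p = 0.00304), with 8.62 to 8.91 in SD mice and 8.16 to 8.91 in SS mice. Fbln5, which helps to assemble elastic fibres, fell by 0.29 (SE 0.07, adjusted p = 0.00801).

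Some other genes with a large increase encode secreted proteins of the matrix. They belong to no list fixed here, and no enrichment was tested. Mmp3, a matrix metalloproteinase, rose by 0.54 (adjusted p = 0.00244 from limma, SE 0.11) and was called in all 18 fits with 1 array left out. Adamts15, a metalloproteinase that cleaves proteoglycans, rose by 0.68 (SE 0.16, adjusted p = 0.00563), and Adamtsl2, a secreted relative without protease activity, by 0.61 (SE 0.14, adjusted p = 0.00708). Without the 3 arrays SD and SS did not overlap for Eln, P4ha2, Mmp3, Adamts15 or Adamtsl2. Pdgfra, a receptor for platelet-derived growth factor on fibroblasts, rose by 0.23 (SE 0.05, adjusted p = 0.006) as the 1 gene called of 16 fibroblast genes. Acta2, smooth muscle actin, rose by 0.19 (SE 0.05, adjusted p = 0.00808) as the 1 of 21 smooth muscle genes.

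Gfpt2 encodes an enzyme at the entry of the hexosamine pathway, which feeds protein glycosylation. Its lowest, median and highest values were 8.59, 8.91 and 9.18 in SD mice and 8.12, 8.31 and 8.79 in SS mice. SS array 10, at 8.79, was the only SS array inside the SD range, and SS array 28, at 8.58, lay just below the lowest SD array, array 20 at 8.59. Gfpt2 rose by 0.53 (adjusted p = 0.00197 from limma, SE 0.10), and by 0.66 (SE 0.11, adjusted p = 4.3e-05) without the 3 arrays. It was the 1 gene of 8 in the hexosamine list that rose, and Gnpda2, which works in the opposite direction of the pathway, fell by 0.31 (SE 0.07, adjusted p = 0.00383) without the 3 arrays.

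Of the 2 genes of cold-inducible RNA-binding proteins 1 fell with all arrays and both fell without the 3 arrays. Rbm3 was 11.21, 11.48 and 12.03 in SD mice and 11.51, 12.07 and 12.25 in SS mice as lowest, median and highest. SD array 20, at 12.03, lay among the SS arrays, and SS arrays 28 and 10, at 11.51 and 11.57, lay among the SD arrays. Rbm3 fell by 0.45 (SE 0.10, adjusted p = 0.00487 from limma), and by 0.64 (SE 0.10, adjusted p = 1.3e-05) without the 3 arrays, where the groups did not overlap. Cirbp differed by -0.50 (SE 0.16, adjusted p = 0.0368), and fell by 0.68 (SE 0.17, adjusted p = 0.00448) without the 3 arrays. Body temperature was not used here.

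Clock genes were called in part. Of 12 repressors of the clock 2 fell and 0 rose, with a median of -0.06, and of 7 activators and 10 output genes 0 passed. Bhlhe41, which encodes the transcriptional repressor Dec2, was 8.08 to 8.72 in SD mice, with a median of 8.41, and 8.33 to 9.73 in SS mice, with a median of 9.32. It fell by 0.78 (SE 0.17, adjusted p = 0.00405 from limma), and by 0.98 (SE 0.17, adjusted p = 1.0e-04) without the 3 arrays, where the groups did not overlap. Its baseline mean, from another time of day and from arrays outside both runs, was 7.46 ± 0.54 (SD, n = 9). Bhlhe40, which encodes the related Dec1, fell by 0.45 (SE 0.11, adjusted p = 0.00745). Ciart, a repressor of the Clock and Bmal1 complex, differed by -0.41 (SE 0.13, adjusted p = 0.0368), and fell by 0.66 (SE 0.12, adjusted p = 1.5e-04) without the 3 arrays. Clock rose without the 3 arrays, by 0.24 (SE 0.06, adjusted p = 0.00561). SD array 20 had the highest level of the repressor list among SD arrays, at 0.15, and the lowest level of the activator list, at -0.10.

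The promoter of Bhlhe41 (RefSeq, GRCm38.p6, chr6:145865371-145865670, minus strand, the same window) is shown because it holds the E-box CACGTG, the element that Clock and Bmal1 bind and that Dec2 itself recognises. The capitals mark the E-box.
Bhlhe41: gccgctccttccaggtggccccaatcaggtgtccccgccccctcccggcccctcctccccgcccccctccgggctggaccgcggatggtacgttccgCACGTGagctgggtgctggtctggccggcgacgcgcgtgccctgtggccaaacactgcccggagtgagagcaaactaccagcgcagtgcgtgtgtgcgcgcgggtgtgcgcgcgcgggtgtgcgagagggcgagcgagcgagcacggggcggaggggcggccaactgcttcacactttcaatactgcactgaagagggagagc

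An E-box was found in 25 of 232 lower genes (10.8%), in 7 of 100 higher genes and in 7.15% of all promoters. Among the 14749 array genes with a promoter the share was 9.57%.

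Several of the smallest adjusted p values belonged to genes outside these lists. Gm2a, the GM2 activator of lysosomal lipid breakdown, had the smallest among the genes named: it was 10.89 to 11.19 in SD mice and 11.13 to 11.58 in SS mice, and fell by 0.33 (SE 0.04, adjusted p = 5.6e-07 from limma). Only SS array 10, at 11.13, lay inside the SD range. Prss35, a serine protease homologue, fell by 0.69 (SE 0.11, adjusted p = 2.7e-04), with 5.23 to 5.69 in SD mice and 5.35 to 6.47 in SS mice. Enah, a regulator of actin filaments, rose by 0.31 (SE 0.05, adjusted p = 2.7e-04), with 9.30 to 9.49 in SD mice and 8.95 to 9.32 in SS mice. These 3 genes passed in all 18 fits with 1 array left out.

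Other large increases were mixed in function. Wfdc8, of the whey acidic protein family, rose by 0.90 (SE 0.22, adjusted p = 0.00881 from limma), with 7.30 to 7.55 in SD mice and 5.82 to 7.97 in SS mice. Srsy, a Y-linked multicopy gene whose copies may share signal, rose by 0.81 (SE 0.19, adjusted p = 0.00708). The gap lay in run 1, with 5.545 to 6.822 in SD arrays 1 to 5 and 4.443 to 5.304 in SS arrays 10 to 14. In run 2 the groups overlapped, with 4.711 to 5.125 in SD arrays 20 to 23 and 4.366 to 5.542 in SS arrays 28 to 31. Sstr4, which binds somatostatin, rose by 0.50 (SE 0.10, adjusted p = 0.00165) in all 18 fits with 1 array left out. Apln, the ligand of the apelin receptor and the 1 of 26 endothelial genes called, fell by 0.55 (SE 0.10, adjusted p = 0.00165). Aldoc, aldolase C, fell by 0.39 (SE 0.07, adjusted p = 0.0011) as the 1 of 26 hypoxia and glycolysis genes. Psme1, a subunit of the interferon-inducible proteasome activator, fell by 0.38 (SE 0.08, adjusted p = 0.0046), and with all 18 arrays no SD value lay above the lowest SS value, both 9.48 when rounded. Over all genes, 25 had groups that did not overlap with all arrays (0.133%), of which 17 were called, and 551 without the 3 arrays (2.93%).

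In 19 of the 43 lists no gene passed, and in 14 lists without the 3 arrays. The 19 were 8 pathway lists and 11 cell type lists. The pathway lists were the clock activators, clock outputs, Atf4 targets, fasting and PPAR lipid genes, cholesterol synthesis, the respiratory chain, the cell cycle and interferon-induced genes. The medians of the last 3, with 40, 31 and 25 genes, were 0.00, -0.07 and -0.13. Of 21 alveolar type 2 genes 1 fell, of 14 alveolar type 1 genes 1 fell and of 24 airway genes 1 rose, their medians lying between -0.02 and 0.00. Skeletal muscle genes gave 0 calls with a median of -0.45. Their level was 2.48 in SD array 2 and 2.40, 1.37, 1.15 and 0.64 in SS arrays 30, 28, 13 and 31. In the other arrays it ran from -1.005 to 0.15. These SS arrays also had the highest levels of the squamous epithelium list, whereas SD array 2 had -0.93 there. Which tissue the muscle transcripts came from was not tested. Liver genes gave 0 calls, with a median of 0.03, of -1.35 within run 1 and of 1.83 within run 2.

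The same contrast at the other hours was used to see where 9 h stood apart. No probe set of 35556 (0%) differed between the 9 h contrast and the mean of the 3, 6 and 12 h contrasts at an adjusted p under 0.01 from limma, while 3990 (11.2%) had an unadjusted p under 0.05. The groups of these other hours hold 11 arrays whose labels, like those of arrays 10, 20 and 28, disagreed with the layout of groups along the numbers. The counts below moved when such arrays were left out. Against 3 h alone 3 probe sets passed, 2 passed without the 3 arrays and 27 without all 16 such arrays of the series. Both probe sets of Ciart had a difference below 0 at 9 h (-0.41 and -0.57) and above 0 at 3 h (0.76 and 0.77), which gave -1.18 (SE 0.18, adjusted p = 3.6e-04) and -1.34 (SE 0.21, adjusted p = 3.6e-04). Stip1, a co-chaperone that joins Hsp70 and Hsp90, had 0.23 at 9 h and 0.96 at 3 h, a gap of -0.73 (SE 0.13, adjusted p = 0.00247) that did not pass without the 3 arrays (-0.63, adjusted p = 0.0345). Against 6 h 1 probe set without a gene name passed, and 2 passed without the 16 arrays. Against 12 h 0 passed, and 6 without the 16 arrays.

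Median differences of the gene lists are set side by side for the 4 hours. In the order 3, 6, 9 and 12 h, the B cell list had -0.87, -0.43, -0.79 and -0.35, and the natural killer list -0.39, -0.12, -0.60 and -0.27. The endoplasmic reticulum list had 0.15, 0.03, 0.07 and 0.06, and the cytosolic chaperones 0.32, 0.10, 0.12 and 0.07. These 4 lists kept their sign at each hour, while the T cell list, at -0.61 at 9 h, had 0.04 at 12 h. The MHC class II list also stayed below 0 at each hour. Its median was -0.29 at 9 h and -0.12 at 12 h, but only -0.02 at 3 h and -0.001 at 6 h. No gene of any list passed the test of 9 h against the mean of the other hours, and without the 16 arrays 1 gene did, Ciart (-0.82, adjusted p = 2.9e-05 from limma).

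**Figure D5:**
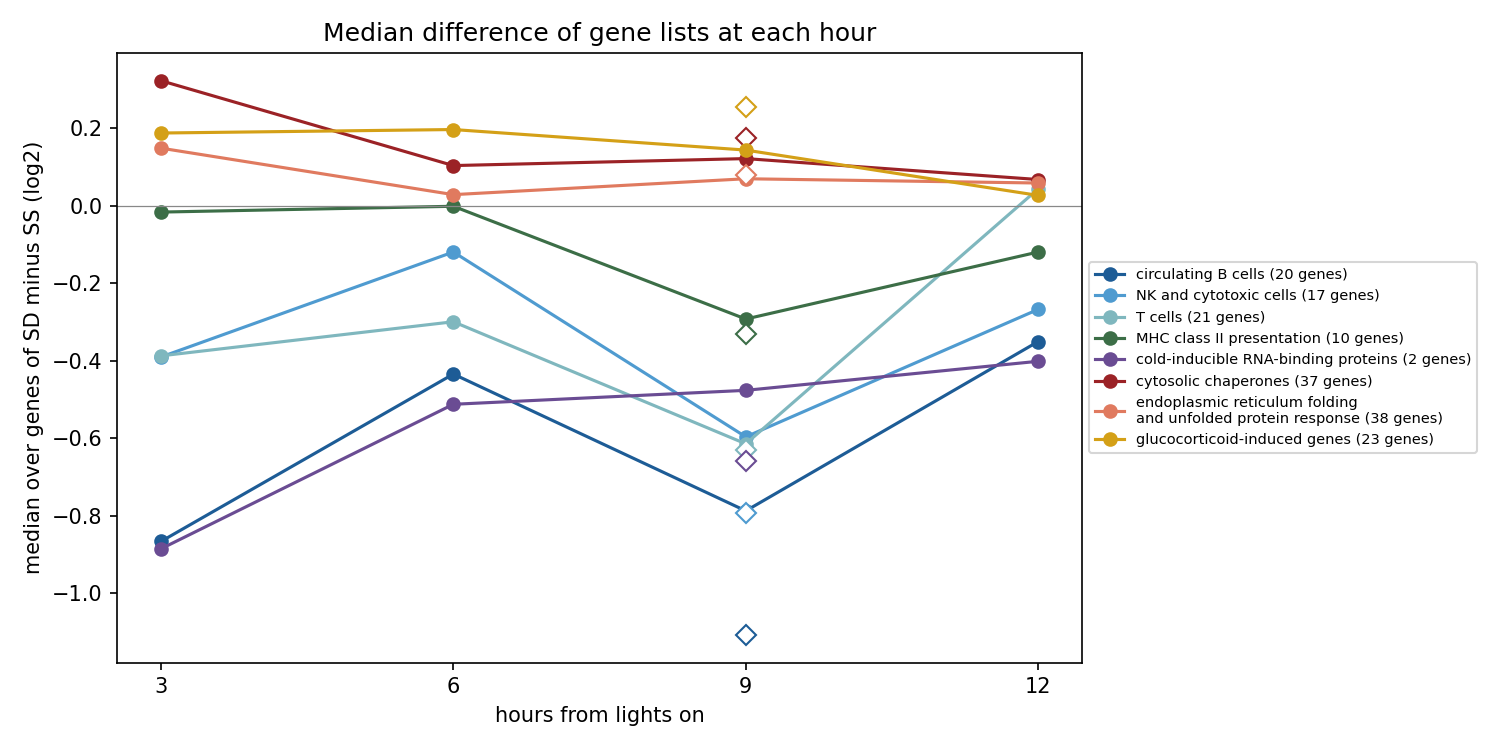
Median difference between SD and SS (log2, y axis) of 8 gene lists at 3, 6, 9 and 12 h (x axis), with open diamonds at 9 h for the value without arrays 10, 20 and 28. The B cell median is -0.87, -0.43, -0.79 and -0.35 over the 4 hours, and -1.11 at 9 h without the 3 arrays.

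At 9 h, arrays of mice that slept differed more from each other than those of mice kept awake. The median over all probe sets of the SD between mice was 0.18 in SS 9 h and 0.13 in SD 9 h, a ratio of 1.41, and 77.1% of probe sets had the larger SD in SS 9 h. Without the 3 arrays the medians were 0.16 and 0.13, the ratio was 1.31 and the share 69.5%. In the other groups the median SD ran from 0.13 to 0.17, so the 9 h SS group was the widest of all 9 groups. The same order did not hold at each hour. The median SD in SS and SD was 0.165 and 0.145 at 3 h, 0.145 and 0.143 at 6 h, and 0.127 and 0.13 at 12 h. Squamous epithelium genes were seen in only some of the SS 9 h arrays, and their part in the spread was not tested. The pooled spread of the 69 arrays is smaller than that of SS 9 h on its own, and the fit on 69 arrays also has more degrees of freedom (63.6) than that on the 18 alone (18.8). The part of each in the difference between the counts of these fits was not tested.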

How the data were processed

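RNA of whole lung was hybridised by the authors to Affymetrix Mouse Gene 1.0 ST arrays, 1 per mouse, and summarised with RMA over all lung arrays together. The deposited table holds log2 intensity for 35556 probe sets in 78 arrays with the decimal point lost from each value; it was restored behind the leading digit, or behind the next one for values that start with 1, so that values run from 2.27 to 13.85. Versions of the authors' tools and the array scan batches are not given in the sources used here. The platform annotation, which can be old, gave 1 symbol to 21218 probe sets, several to 1881 and none to 12457; 18820 genes were measured.

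A means model was fitted with limma 3.58.1 (R 4.3.3) on the 69 SD and SS arrays, with the contrast SD 9 h minus SS 9 h, moderated tests, 2-sided, and Benjamini-Hochberg adjustment over all 35556 probe sets at 0.01. A gene passed when any of its probe sets with 1 symbol did. A gene with several probe sets is shown by the brightest over 78 arrays. A second contrast set the 9 h difference against the mean of the 3, 6 and 12 h differences. Group members came from the labels, and the mice are separate animals. The members and the gene lists were chosen with earlier results of these data known, and the squamous epithelium list, the stress element and Hspa5, Hsph1, Chst14, Hmcn1, Lrrc17, Tiam1 and Krt4 were picked after values were seen. Genes were named by rule: up to 12 per direction with the largest difference among those passing, of the same sign in both runs and without arrays 10, 20 and 28 (predicted genes, receptor segments and olfactory genes left out); up to 4 per list with the smallest p; and up to 5 per direction with the smallest p without the 3 arrays. A selection of these is described. Counts of genes in lists are to be read beside the shares over all genes, and no test of a list was run. These shares were 0.675% higher and 1.57% lower with all arrays, and 2.3% and 3.18% without the 3 arrays. The fit was tested on simulated data for the 9 h contrast over 35556 probe sets. Of 50 changed probe sets at each size, 32% were recovered at a log2 change of 0.25, 70% at 0.5 and 100% at 1. The simulated noise was normal, independent between arrays and of 1 spread per probe set in all groups. In the data SS 9 h was wider than SD 9 h and single arrays stood apart. These shares therefore do not give the recovery in the 9 h groups. The number of arrays limits the precision. Alternatives are other sets of arrays, run and marker covariates, array weights, filters, centring and quantile normalization. Columns of other series used were 0. Promoters and motifs came from RefSeq's table with Python 3.11.15.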

Additional observations from a re-analysis of the deposited data

Results flagged for a closer look

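A single array stood apart 22 times among 240 groups examined (77 genes and 43 list levels, each in SD 9 h and SS 9 h), by the gap between the extreme array and its neighbour relative to the range of its group of 9. Chance alone flags about 1 in 20 groups. SD array 20 accounted for most of them. It was the lowest SD array for Calr (11.53), Hspa5 (11.21), Hyou1 (9.43), Pdia6 (9.52), Sstr4 (8.07), Hp (11.54) and Acta2 (11.93), and the highest for Map3k6 (10.04) and Prss35 (5.69). Its level was also the lowest for the clock activators (-0.10) and for endoplasmic reticulum folding (-0.12) and the highest for the clock repressors (0.15) and for neutrophils and monocytes (0.74).

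SS array 10 was the lowest SS array for Il2rb (6.46), Cd2 (8.51) and Aldoc (8.38). SS array 28 had the highest SS level of thymus and lymph node genes (1.50), Atf4 targets (0.27) and respiratory chain genes (0.19). SD array 22 was the highest SD array for Ncr1 (6.78). SD array 2 had the highest SD level of skeletal muscle genes (2.48) and the lowest of airway genes (-0.26).

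The difference between SD and SS changed between hours, by a test of the change itself in limma, for both probe sets of Ciart (9 h minus 3 h, -1.18 and -1.34), for Stip1 (9 h minus 3 h, -0.73) and for 1 probe set without a gene name (9 h minus 6 h, -1.03).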

How the results depend on the processing

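The 423 genes called (127 higher, 296 lower) became 1 (0 higher, 1 lower) on the 18 arrays alone, 1031 (432 and 599) without arrays 10, 20 and 28, 1214 (537 and 677) without 16 arrays of the series, 159 (115 and 44) within run 1, 3 (0 and 3) within run 2, 1248 (377 and 871) with array weights and 160 (72 and 88) with the squamous epithelium covariate, which was added after seeing the data. The 16 are the arrays whose labels disagreed with the layout of groups along the array numbers. With arrays centred on their medians 80 genes were higher and 397 lower, so that 16.8% of calls were higher, beside 30% as analysed, 41.9% without the 3 arrays, 44.2% without the 16 and 72.3% within run 1. With 1 array left out the total ran from 64 to 801, the higher genes from 23 to 243 and the lower from 41 to 558. All 78 arrays, the run as a block, a mean intensity filter at 6, trend and robust fits, the liver covariate, quantile normalization and the brightest probe set per gene kept each of these counts within 1.5 times. Against the other hours 0 genes passed, and 1 (Ciart) without the 16 arrays; against 3, 6 and 12 h alone 3, 1 and 0 probe sets passed, and 27, 2 and 6 without the 16. The 1031 genes without the 3 arrays became 658 on the other 15 arrays of the 9 h groups alone and ran from 571 to 1217 with 1 more array left out. The ratio of spreads, 1.41, was 1.31 without the 3 arrays, 1.32 by median absolute deviations, and 1.29 to 1.46 with 1 array left out. The cause of these changes was not tested, beyond the fewer arrays in the smaller fits. No paired analysis was possible because array numbers are not shared between the groups.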
